A study of Caenorhabditis elegans with 2 samples.

Results

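The regions described here are the 336 nuclear tRNA genes that the Ensembl annotation of the WBcel235 assembly (ce11) places on the 5 autosomes of Caenorhabditis elegans, out of 46890 annotated nuclear genes, and the measure is the binding signal of the transcription factor HLH-15 at each of them. All 336 were kept, whether or not a peak was found. A gene was given the highest signal of any peak whose summit lay inside it or within 100 bp of either end, in each of 4 peak lists. Embryos of strain OP566, genotype unc-119(tm4063) III; wgIs566, were used, which carries a stably expressed transgene of HLH-15 with a C-terminal GFP-FLAG tag. Both libraries, biological replicates 1 and 2, belong to 1 group, whole late embryos of hermaphrodites 3 hours after synchronization by egg bleaching, so all values come from the tagged strain and no second condition was compared. Whole embryos mix all cell types, so binding in fewer cells and weaker binding per cell cannot be told apart. The labels state neither the copy number of the transgene nor its expression relative to the endogenous gene.

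tRNA genes are transcribed by RNA polymerase III from promoters that lie inside the gene. The A box and the B box are bound by TFIIIC, which places TFIIIB on the DNA just upstream of the start, and TFIIIB recruits the polymerase, which stops at a run of T after the gene. HLH-15 belongs to the basic helix-loop-helix proteins, which bind CANNTG sequences (E-boxes), mostly as dimers and at genes of RNA polymerase II. In C. elegans the tRNA genes are scattered over all chromosomes, many as identical copies and many inside introns of protein-coding genes.

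To show what such a gene looks like, 5 genes are printed 5′ to 3′ from the NCBI sequence of ce11. The first 4 are among the 12 with the highest pooled signal, and the fifth belongs to a family of identical Ala genes that is taken up again further on. They were chosen after their values were seen. Capitals mark the letters GTTCNANNC, the core of the B box.
F57F5.t1, Ile, chrV:12002176-12002260, plus strand: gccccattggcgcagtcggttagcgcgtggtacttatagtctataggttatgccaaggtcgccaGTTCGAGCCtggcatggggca
ZC455.t1, Ser, chrV:12780386-12780467, minus strand: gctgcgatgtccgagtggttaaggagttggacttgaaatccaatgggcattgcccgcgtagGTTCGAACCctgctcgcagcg
F29C4.t1, Arg, chrIV:143982-144054, plus strand: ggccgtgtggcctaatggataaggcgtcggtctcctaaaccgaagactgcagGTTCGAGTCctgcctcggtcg
C38C6.t1, Leu, chrII:14635335-14635416, minus strand: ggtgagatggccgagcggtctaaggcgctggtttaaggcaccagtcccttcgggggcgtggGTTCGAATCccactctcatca
ZK622.t1, Ala, chrII:5292332-5292403, plus strand: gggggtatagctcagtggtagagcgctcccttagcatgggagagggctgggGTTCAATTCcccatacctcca
The B box letters stood in the last part of each gene, and of these 5 sequences only that of F57F5.t1 belongs to a gene annotated with an intron.

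HLH-15 peaks were found at 174 of the 336 autosomal tRNA genes in the pooled list. Of the 336, 65, or 19.3%, carried a peak that passed the authors' cut-off for the irreproducible discovery rate (IDR). That cut-off is set from how well the order of peaks repeats from one replicate to the other. In these lists it amounted to a cut in pooled signal, given below, so it does not show that each peak was repeatable. Among the 40532 other autosomal genes 0.711% had an IDR summit inside them or within 100 bp. Among the 2707 of them no longer than the longest tRNA gene (122 bp, piRNA genes left out) 3.36% did. The other genes include protein-coding hosts of tRNA genes, for which a peak at the tRNA gene also counts, and longer genes were searched over a wider span. The 65 genes shared 64 peaks. In the pooled list, which also holds background peaks, the 174 tRNA genes with a summit in reach made up 51.8%, against 17.7% of the other autosomal genes and 14.5% of the short ones. A summit in both replicate lists was found at 113 tRNA genes, or 33.6%, against 13.1% of the other genes and 7.57% of the short ones. At 131 tRNA genes no list had a summit within 100 bp. These shares are counts over annotated genes, which share libraries and often sequence, and they were given no test.

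The signal is the authors' score for each peak, on a scale that is not stated and that differs between lists, so levels are compared only within a list. Across the 174 tRNA genes with a pooled peak the signal had a median of 46.3, quartiles of 30.7 and 67.8 and a range of 19.2 to 173.3, and the median of the whole pooled list was 23.9. In replicate 1 the median over 160 tRNA genes was 32.9, against 16.1 for the list. In replicate 2 it was 18.3 over 150 tRNA genes, against 9.97 for the list. A gene's value is that of its highest peak, while a list's median is over single peaks. The lists held 407 IDR, 17654 pooled, 21250 replicate 1 and 30000 replicate 2 peaks, and all 407 IDR peaks were the 407 pooled peaks with the highest signal, so an IDR peak here means a pooled signal of at least 58.9. Read numbers are not given, and the depth behind the signal is unknown.

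Most of the 65 IDR genes also had a peak in each replicate list. The IDR list was derived from the same 2 libraries, so this overlap is not an independent check. Of the 65 genes, 64 had a peak in replicate 1, 64 in replicate 2 and 63 in both. The exceptions were K02D7.t1, an Asp gene with no replicate 2 peak, and T23F1.t1, a Lys gene with no replicate 1 peak. When each replicate list was reduced to its 407 highest peaks, 48 of the 65 genes were found in replicate 1, 46 in replicate 2, 32 in both and 3 in neither. Of the 109 genes with a pooled peak below the IDR list, 48 had a peak in both replicates. Spearman's rho between the replicates was 0.62 across the 113 genes seen in both, and Pearson's r of their log2 signals was 0.64. These describe genes within 1 pair of libraries, and genes are not independent replicates. Among the 63 IDR genes alone, whose range the threshold narrows, rho was 0.21.

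**Figure D1:**
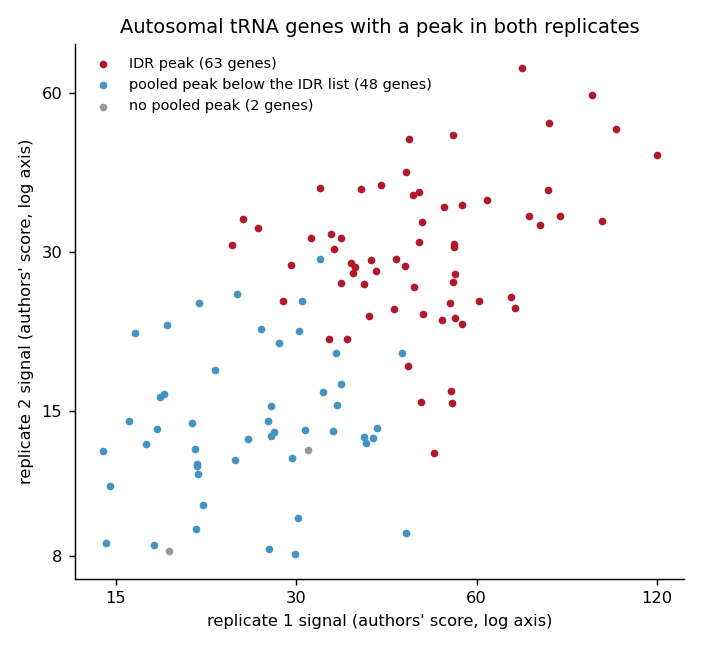
Signal in replicate 1 (x, log axis) against replicate 2 (y, log axis) for the 113 autosomal tRNA genes with a peak in both, coloured by whether the gene had an IDR peak (63), a pooled peak below the IDR list (48) or none (2). The IDR genes lie towards the upper right, F57F5.t1 being farthest right at 119.9, and the order within them differs between the replicates.

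The strongest autosomal tRNA gene was F57F5.t1 (WBGene00014406), an intergenic Ile gene with an intron. Its pooled signal was 173.3, its signal in replicate 1 was 119.9 and in replicate 2 45.7, and its pooled peak was number 22 of the whole list. B0523.t1 (WBGene00006314), a Trp gene in an intron of fli-1, the flightless homologue, had 156.6 pooled, 102.5 in replicate 1 and 51.3 in replicate 2. T21B4.t1 (WBGene00014524), an Ile gene in an intron of the collagen gene col-85, had 149.5, 93.4 and 59.5 in the same order of lists. All 3 ranked within the first 100 peaks of both replicate lists.

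The next genes were ZC455.t1, a Ser gene with 135.6 pooled, 71.5 in replicate 1 and 66.9 in replicate 2, and C37A2.t1, a Cys gene in an intron of the cyclin E gene cye-1, with 132.7, 97.3 and 34.4. The Arg gene F29C4.t1, in an intron of the collagen gene col-99, had 131.7 pooled, 79.2 in replicate 1 and 52.7 in replicate 2. ZC455.t1 had the highest replicate 2 signal of all the members, and F57F5.t1 the highest replicate 1 signal. The other 6 of the first 12 were the Leu genes C38C6.t1 (120.9 pooled) and C04A2.t1 (102.2), the Ile gene F33G12.t1 (118.2) and the Arg genes F35H8.t1 (108.3), Y92H12A.t1 (98.3), which lies in an intron of the Src kinase gene src-1, and F56F3.t1 (97.4). All 12 had a peak in both replicates, with replicate 1 signals of 46.3 to 119.9 and replicate 2 signals of 33.8 to 66.9. They came from 6 isotypes, stood alone (no other tRNA gene within 1000 bp), and 9 of them lay in introns.

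All 20 isotypes with at least 4 autosomal genes had both an IDR gene and genes without a pooled peak. The share with an IDR peak was highest for Arg, with 7 of 17 genes, and lowest for Gly, with 4 of 35, and the order in between rests on 1 to 7 genes each. The 17 Arg genes also led in the top lists of both replicates, with 6 genes in replicate 1 and 7 in replicate 2. Among the others, Cys had 2 of 6, Lys 7 of 28, Met 3 of 12, Glu 4 of 18, Val 3 of 17, Trp 1 of 7 and Phe 1 of 8. On the X chromosome the order was another one, with 4 of 27 Arg genes and 7 of 20 Gly genes, and across the 20 isotypes Spearman's rho between the IDR shares of autosomes and X was -0.39. On the autosomes the 100 bp before the 5′ end had a median G+C content of 47% at Arg and 38% at Gly genes. At Tyr genes, 2 of 11 with an IDR peak, it was 50%. The part of this in the order of isotypes was not tested.

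**Figure D2:**
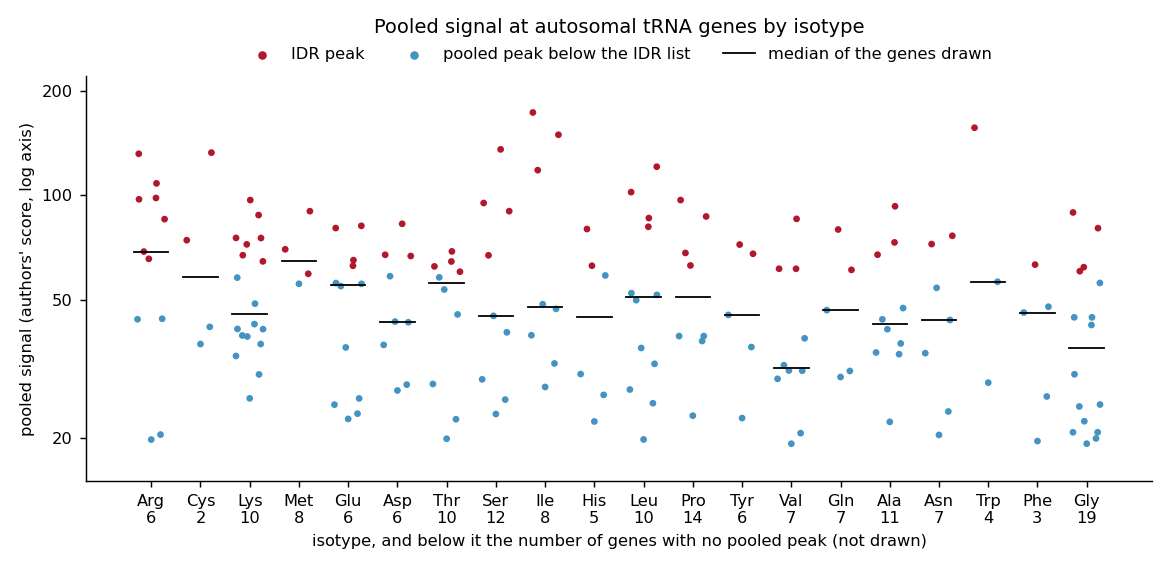
Pooled signal (log axis) of each autosomal tRNA gene with a pooled peak, by isotype and ordered by the share of genes with an IDR peak; red points are IDR peaks, blue points pooled peaks below the IDR list, bars medians of the drawn genes, and the number under each isotype counts its genes with no pooled peak. Arg, at the left, has 7 IDR genes and 6 without a peak, and Gly, at the right, has 4 and 19.

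The Arg genes show how wide the range within an isotype was. The 7 IDR genes had pooled signals of 65.6 to 131.7, replicate 1 signals of 23.5 to 79.2 and replicate 2 signals of 27.4 to 52.7. Another 4 had pooled signals of 19.8 to 44.1, and 6 had no pooled peak. The strongest gene of the remaining isotypes was K06A4.t1 for Ala (93.0 pooled), T23F1.t1 for Lys and T23F1.t2 for Pro (96.9, 1 shared peak), T15B12.t1 for Met (90.01), Y82E9BR.t1 for Gly (89.3), F22G12.t1 for Val (85.5) and F28F8.t3 for Asp (82.8). It was Y104H12A.t1 for Glu (81.7), W09G10.t1 for His (80.0), T03E6.t1 for Gln (79.7), Y116F11A.t1 for Asn (76.5), C47E8.t1 for Tyr (72.1), C24H11.t1 for Thr (68.9) and Y39B6A.t9 for Phe (63.1). Each of these had a peak in both replicates except T23F1.t1, and Y39B6A.t9 was 205th in replicate 1 but 7271st in replicate 2. The pooled summit of the shared peak lay inside the Pro gene T23F1.t2 and 79 bp from the Lys gene T23F1.t1. The Lys gene with the next highest pooled signal was B0350.t1 (87.7), with the summit 1 bp from the gene. The gene annotated for selenocysteine, K11H12.t1, in which the UGA-reading tRNA is encoded, had a pooled signal of 54.5, 40.9 in replicate 1 and 13.9 in replicate 2, below the IDR list. Of the 2 genes with no assigned isotype, C08E8.t3 had 21.5 pooled and 14.7 in replicate 2, and DY3.t2 had no peak. Initiator and elongator methionine genes are not told apart in the annotation used.

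Summits were concentrated at the tRNA genes, about as many inside the gene as in the 100 bp on its sides. Counted from the 5′ end on the gene's strand, the median pooled summit was at 18 bp, with quartiles of -20.75 and 54 bp, and the genes had a median length of 72 bp. The median was 26.5 bp in replicate 1 and 12.5 bp in replicate 2. Of the 65 IDR summits, 35 lay inside the gene, 20 upstream and 10 downstream, so that 53.8% fell on the gene, which makes up 27.2% of the window searched. Of all 174 pooled summits, 85 lay inside the gene, or 48.9%, with 59 upstream and 30 downstream. The share inside was 48.1% in replicate 1 and 46.0% in replicate 2. Around the 235 genes with no other tRNA gene within 1000 bp, the bin from 0 to 49 bp held 50 pooled summits, against a mean of 1.95 summits in bins more than 500 bp away. The same bin was the fullest in replicate 1, with 46 summits against 2.45, and in replicate 2, with 36 against 3.3.

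**Figure D3:**
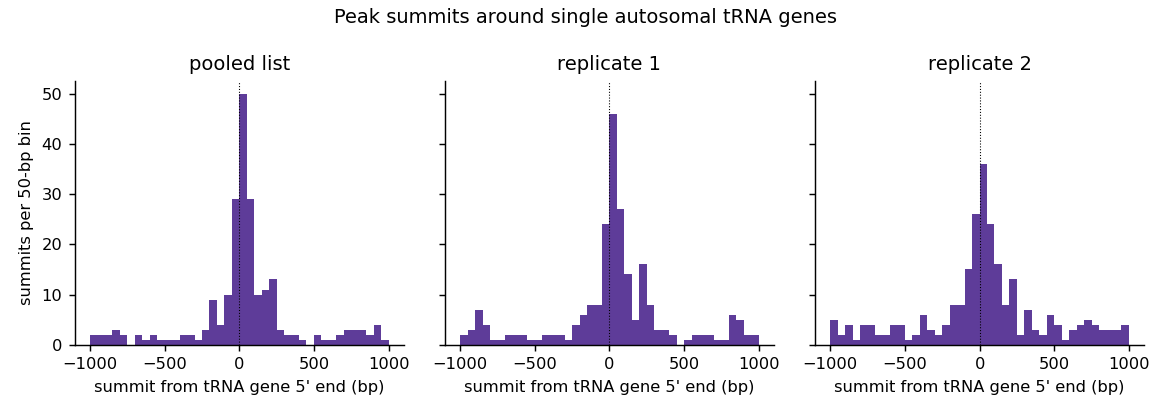
Number of peak summits per 50-bp bin (y) by distance from the 5′ end of the 235 single autosomal tRNA genes, on the gene's strand (x, bp), in the pooled list and in each replicate. The bin that starts at the 5′ end is the highest in each panel, with 50, 46 and 36 summits.

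Few genes had their nearest pooled summit within a few bp of the 100-bp limit. With a limit of 250 bp, an IDR peak was found at 71 genes, a pooled peak at 198 and a peak in both replicates at 143. Around the single genes, the bin from 200 to 249 bp held 13 pooled summits, 16 in replicate 1 and 13 in replicate 2. Just inside it, C12C8.t4, a Gly gene, took its pooled signal of 20.8 from a summit 100 bp away, and the Asn gene Y43F4A.t2 took 43.7 from one at 98 bp. Just outside, the nearest summit of the Pro gene ZK970.t1 was at 102 bp with a signal of 23.2, and that of the Leu gene T05A8.t1 at 104 bp with 23.7.

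The DNA upstream of the gene was richer in G and C where a peak was found. The 100 bp before the 5′ end had a median G+C content of 49% at the 65 IDR genes, 46% at the 109 with a weaker pooled peak and 40% at the 162 with no pooled peak. The genes themselves were alike, with medians of 59.7%, 58.3% and 58.3%, and the 100 bp after the 3′ end had 35%, 33% and 31%. In classes of upstream G+C, the number with an IDR peak was 1 of 67 at up to 35%, 5 of 55 over 35 to 40%, 13 of 76 over 40 to 45%, 24 of 81 over 45 to 50% and 22 of 57 over 50%. In the same 5 classes, the pooled list had a peak at 17, 19, 37, 57 and 44 genes. With the 407 highest peaks of replicate 1 alone the counts were 1, 4, 11, 21 and 21, and with those of replicate 2 alone they were 0, 4, 9, 19 and 15. Among the genes with a peak, Spearman's rho between upstream G+C and signal was 0.42 in the pooled list (174 genes), 0.31 in replicate 1 (160) and 0.32 in replicate 2 (150), while for downstream G+C it was 0.05, -0.04 and 0.01.

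**Figure D4:**
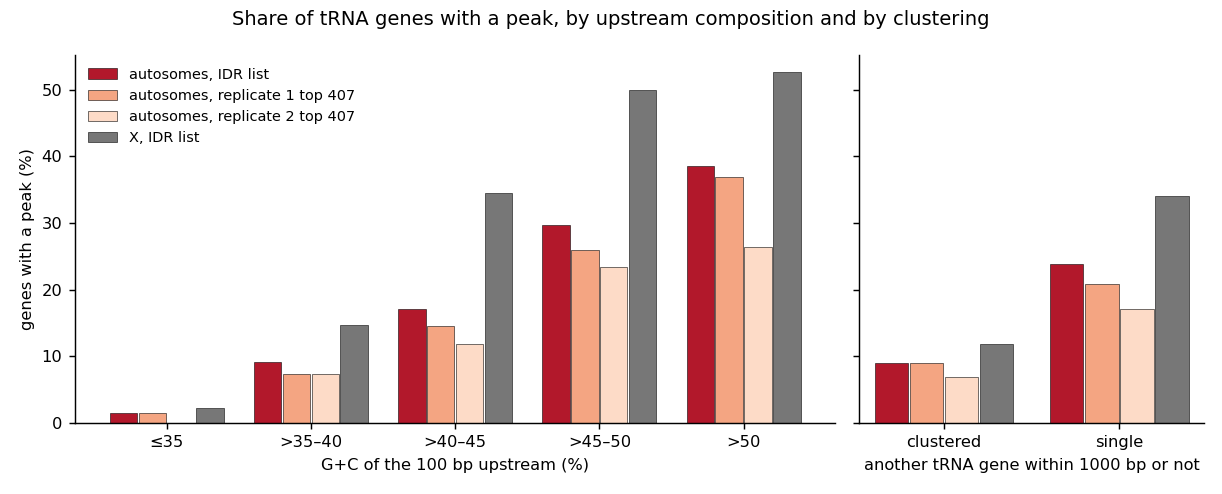
Share of tRNA genes with a peak (y, percent) by G+C of the 100 bp upstream (left) and by clustering (right), for the autosomes in the IDR list and in the 407 highest peaks of each replicate, and for the X chromosome in the IDR list. The bars grow with upstream G+C in all 4 sets, from 1 of 67 to 22 of 57 autosomal genes in the IDR list, and are lower for clustered than for single genes.

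The higher G+C was seen in the first 100 bp and not beyond. In steps of 20 bp, the mean G+C at 41 to 60 bp upstream was 52.1% at IDR genes, 44.9% at genes with a weaker pooled peak and 40.2% at genes with none. At 81 to 100 bp it was 45.8%, 41.6% and 37.7% for the same 3 sets, and at 101 to 120 bp it was 39.3%, 39.5% and 37.8%. Beyond 140 bp the IDR genes were at or below the genes with no peak. At 21 to 40 bp upstream, in the stretch just before the first 20 bp, the IDR genes had 44.4% and the genes with no peak 36.8%, a dip in all 3 sets. After the 3′ end the first 20 bp held 23.5% at IDR genes and 23.2% at genes with no peak, where the T run lies.

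**Figure D5:**
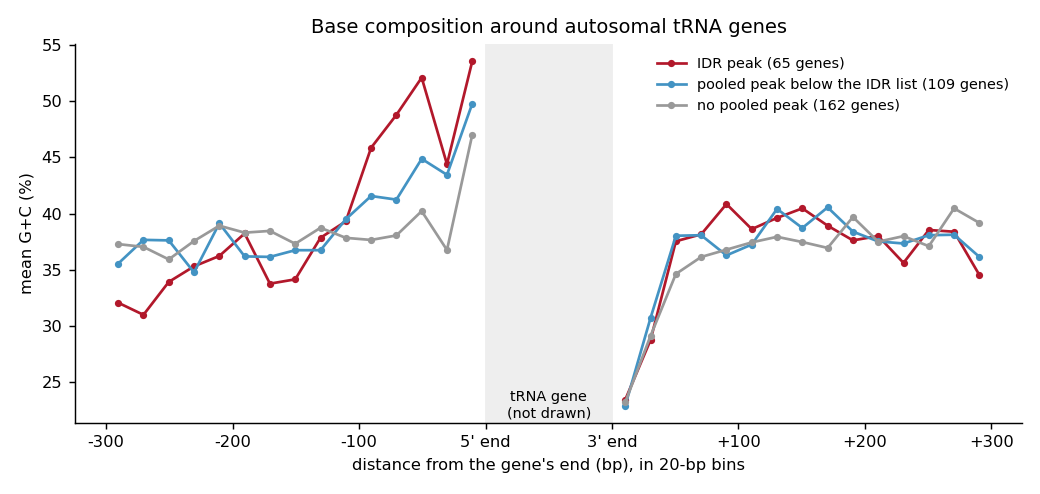
Mean G+C (y, percent) in 20-bp bins before the 5′ end and after the 3′ end of the 65 autosomal tRNA genes with an IDR peak, the 109 with a pooled peak below the IDR list and the 162 with none; the gene itself is not drawn. The IDR genes are highest in each of the 5 bins nearest the 5′ end, where the 3 lines part. After the 3′ end the lines lie closer but still differ in places. In the order of sets above, the means are 40.8%, 36.3% and 36.8% at 81 to 100 bp. At 281 to 300 bp they are 34.5%, 36.1% and 39.2%.

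The gradient was also seen away from clusters and repeated DNA. Among the single genes whose flanks were more than 90% unique (the share of 32-base words out to 250 bp that occur once in the nuclear genome), the IDR counts over the 5 classes were 1 of 35, 4 of 30, 11 of 47, 22 of 59 and 17 of 37. The 276 tRNA genes of the X chromosome, in the same libraries but at other loci, gave 2 of 88, 10 of 68, 19 of 55, 23 of 46 and 10 of 19. The 313 autosomal snoRNA genes gave 0 of 69, 1 of 52, 1 of 45, 6 of 51 and 36 of 96. The other short autosomal genes differed little, with 1.94% of 1082 at up to 35% and 3.24% of 247 over 50%. G+C content also changes how well fragments are amplified and sequenced, and the part of this in the result was not tested.

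A family of identical genes allows flanks to be compared at a constant gene sequence. The Ala gene printed above has 15 copies in the nuclear genome, 8 of them on the autosomes with the same 72 bases and different flanks. Of these 8, ZK622.t1 and F15B9.t1 had an IDR peak, Y65A5A.t2, Y65A5A.t1 and C52E12.t3 a weaker pooled peak, and M03A1.t1, F49C5.t2 and Y7A9D.t2 no pooled peak, the last with a signal of 20.6 in replicate 1. ZK622.t1 had 73.2 pooled, 45.5 in replicate 1 and 28.3 in replicate 2, and F15B9.t1 had 67.4, 37.7 and 28.2. The middle 3 had pooled signals of 34.9 to 37.4 and a peak in only 1 replicate each. Their 100 bp upstream are printed in order of pooled signal, 5′ to 3′ up to the base before the gene, with G and C in capitals.
ZK622.t1, Ala, chrII:5292232-5292331, plus strand: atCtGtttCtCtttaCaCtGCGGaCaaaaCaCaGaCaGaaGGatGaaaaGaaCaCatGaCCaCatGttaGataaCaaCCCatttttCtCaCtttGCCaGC
F15B9.t1, Ala, chrV:13003581-13003680, minus strand: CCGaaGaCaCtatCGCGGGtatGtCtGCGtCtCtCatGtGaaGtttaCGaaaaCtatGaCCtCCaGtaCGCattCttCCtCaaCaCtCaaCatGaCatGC
Y65A5A.t2, Ala, chrIV:16399084-16399183, plus strand: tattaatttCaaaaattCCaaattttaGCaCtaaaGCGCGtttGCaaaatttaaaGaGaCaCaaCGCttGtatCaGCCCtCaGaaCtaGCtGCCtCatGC
Y65A5A.t1, Ala, chrIV:16398284-16398383, plus strand: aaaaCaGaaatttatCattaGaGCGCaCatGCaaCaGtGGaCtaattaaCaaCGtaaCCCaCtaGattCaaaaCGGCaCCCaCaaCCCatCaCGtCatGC
C52E12.t3, Ala, chrII:7003065-7003164, minus strand: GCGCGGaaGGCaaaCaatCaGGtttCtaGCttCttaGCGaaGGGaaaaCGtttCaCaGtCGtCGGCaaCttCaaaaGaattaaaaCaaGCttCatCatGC
M03A1.t1, Ala, chrII:4565289-4565388, plus strand: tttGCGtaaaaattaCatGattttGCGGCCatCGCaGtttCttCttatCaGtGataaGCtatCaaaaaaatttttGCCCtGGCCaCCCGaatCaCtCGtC
F49C5.t2, Ala, chrII:12542534-12542633, plus strand: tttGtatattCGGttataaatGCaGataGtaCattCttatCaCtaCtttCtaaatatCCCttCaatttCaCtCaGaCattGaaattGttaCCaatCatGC
Y7A9D.t2, Ala, chrIV:16389283-16389382, minus strand: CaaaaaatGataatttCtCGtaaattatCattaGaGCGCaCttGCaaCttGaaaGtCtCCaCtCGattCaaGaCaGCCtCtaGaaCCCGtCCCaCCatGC
The G+C content of these windows was 40% and 47% at the genes with an IDR peak, 37%, 42% and 44% at those with a weaker one, and 40%, 30% and 42% at those with none, so the ranges overlapped. CANNTG occurred 2 times upstream of ZK622.t1 and once each upstream of F15B9.t1, Y65A5A.t1 and Y7A9D.t2, and it was not found in the other 4 windows.

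Identical genes differed in their peaks in other families too. The autosomal genes formed 43 families of 2 or more identical members with 242 genes in all. In 33 families some but not all members had an IDR peak, in 10 none had, and in no family did all have one. The 18 autosomal copies of the largest Gly family included 3 with an IDR peak, 9 with a weaker pooled peak and 6 with none, and the pooled signals ran from 19.3 to 89.3. The 15 copies of the largest Lys family included 6 IDR genes and 4 with no pooled peak. In the 27 families that held both an IDR gene and a gene with no pooled peak, the median upstream G+C was higher at the IDR genes in 23 and lower in 4. The median over the 27 families was 47% for the IDR genes and 39% for the genes with no peak. Genes without an identical copy had an IDR peak in 11 of 86 cases, or 12.8%, and genes with a copy in 54 of 250, or 21.6%. How reads that match several copies equally well were treated is not given in the sources used here. A median of 49.5% of the 32-base words that touch an autosomal tRNA gene occur once in the nuclear genome, and the part of this in these values was not tested.

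The share with an IDR peak was lower among genes in clusters. With genes chained at gaps of at most 1000 bp, 101 genes fell into 46 clusters and 235 stood alone. An IDR peak was found at 9 clustered genes, or 8.9%, and at 56 single genes, or 23.8%. With the 407 highest peaks of replicate 1 alone it was 9 of 101 clustered against 49 of 235 single genes, and with those of replicate 2 alone 7 against 40. Median pooled signals were 39.2 at clustered and 54.5 at single genes with a peak. On the X chromosome 16 of 135 clustered and 48 of 141 single genes had an IDR peak. Within the autosomal genes whose upstream G+C exceeded 45%, it was 6 of 30 clustered and 40 of 108 single genes, and at or below 45% it was 3 of 71 and 16 of 127. Flanks were also less often unique in clusters, and among genes with flanks more than 90% unique the counts were 4 of 58 clustered and 55 of 208 single genes. The flanks reach 250 bp, so a close tRNA neighbour itself lowers their unique share. This filter left out IDR genes in close pairs, namely C16C8.t1, W09G10.t2, W10G11.t1, T23F1.t1 and T23F1.t2, so it cannot separate clustering from repeated DNA. These differences were given no test.

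The counts differed with the orientation of the pairs and were given no test. Of the pairs, the 20 divergent ones, with the genes pointing away from each other, held no IDR peak and 9 held a pooled peak. An IDR peak was held by 1 of the 9 convergent pairs and by 6 of the 10 pairs on the same strand. Counted by gene, 6 of the 20 in same-strand pairs had an IDR peak, or 30%, against 23.8% of single genes, so the lower share of clustered genes was not seen in these pairs. Of these 6, C16C8.t1, W09G10.t2 and W10G11.t1 are identical Lys genes from a repeated arrangement described below, so the 30% rests largely on that arrangement. On the X chromosome 5 of the 32 genes in same-strand pairs had an IDR peak, against 48 of 141 single genes. The median gap of the divergent pairs was 164.5 bp, 11 of the 20 consisted of identical genes, and their flanks were 89.1% unique in the median, against 99.9% for the other pairs. Their median upstream G+C was 40.75%, against 45% for the other pairs, and the part of these values in the result was not tested. On the X chromosome 3 of 17 divergent, 1 of 6 convergent and 4 of 16 same-strand pairs held an IDR peak. By distance, 4 of the 10 genes with a neighbour within 100 bp had an IDR peak, against 5 of the 91 with the nearest one farther off, at up to 1000 bp. Of these 4, T23F1.t1 and T23F1.t2 share 1 peak, and W09G10.t2 and W10G11.t1 belong to a repeated arrangement described below.

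The closest pairs included T23F1.t1 and T23F1.t2 on chromosome V, Lys and Pro genes facing each other across 67 bp, the only cluster with 2 IDR genes. They share 1 pooled peak of 96.9, with 35.2 at both genes in replicate 2 and 73.3 at T23F1.t2 in replicate 1. The pooled summit lay inside T23F1.t2 and 79 bp from T23F1.t1. The largest clusters, with 4 genes each, had no IDR peak. In that of identical Gly genes, C12C8.t4 and C12C8.t3 shared a pooled peak of 20.8, with 11.6 and 8.50 in replicate 2 and no peak in replicate 1, and C12C8.t5 and C12C8.t2 had none. In that on chromosome IV, the Ala genes Y65A5A.t1 and Y65A5A.t2 had 35.3 and 37.4, the His gene Y65A5A.t4 had 30.6, the Val gene Y65A5A.t3 had none, and none of the 4 had a peak in both replicates.

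Another arrangement occurred 3 times on chromosome II, a Lys gene followed on the same strand by a Thr gene after 83 to 104 bp, and in each the IDR peak fell on the Lys gene. The pooled signals were 64.5 at C16C8.t1, 72.2 at W09G10.t2 and 75.4 at W10G11.t1, and the 3 Thr genes had no pooled peak. In replicate 1 the Lys genes had 34.7, 54.4 and 47.1, and in replicate 2 they had 30.4, 16.4 and 25.8, where the peak of 16.4 was also in reach of the Thr gene W09G10.t3. Upstream G+C was 59%, 53% and 47% at the Lys genes and 34%, 35% and 33% at the Thr genes. The window upstream of each Thr gene lies in the DNA just after its Lys gene. In the pairs with gaps of 93 and 83 bp it takes in the end of the Lys gene. The 100 bp after the 3′ end of the Lys genes had 34%, 35% and 31%, against a median of 32% over all 336 genes. The contrast is therefore one between both sides of the same Lys gene. The windows of the first pair show the contrast, with G and C in capitals.
C16C8.t1, Lys, chrII:3439467-3439566, minus strand: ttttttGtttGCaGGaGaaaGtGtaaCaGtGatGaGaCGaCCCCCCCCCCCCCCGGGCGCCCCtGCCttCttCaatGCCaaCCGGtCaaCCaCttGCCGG
C16C8.t2, Thr, chrII:3439291-3439390, minus strand: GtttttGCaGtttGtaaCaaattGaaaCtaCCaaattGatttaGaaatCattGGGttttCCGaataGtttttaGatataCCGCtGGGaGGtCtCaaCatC
The window of the Lys gene, with the peak, holds a long run of C that the window of the Thr gene lacks. These 3 pairs and their windows were picked after their values were seen.

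The shares differed little between introns and intergenic DNA. An IDR peak was found at 38 of 188 intronic genes, or 20.2%, at 26 of 139 intergenic genes, or 18.7%, and at 1 of 9 genes that touch an exon. A pooled peak was found at 53.7% of intronic and 48.9% of intergenic genes. In introns, 24 of 110 genes on the strand of the host and 14 of 77 on the opposite strand had an IDR peak. By chromosome the share ran from 14.1% on IV (10 of 71) to 23.4% on III (15 of 64), with 15 of 66 on I, 13 of 57 on II and 12 of 78 on V. By distance to the nearest protein-coding start, it was 19 of 92 at up to 500 bp and 4 of 33 beyond 5000 bp. Genes with an intron of their own had an IDR peak in 4 of 17 cases, and genes without one in 61 of 319.

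The share with an IDR peak differed little by the letters of the internal promoter, and the share with a pooled peak differed more. On the gene's strand, the B box letters GGTTCGA were found in 64.9% of the autosomal tRNA genes, in 64.1% of those on X and in 0.661% of the first 72 bases of other autosomal genes; the looser GTTCNANNC, which overlaps it, was found in 94.9%, 97.1% and 1.77%. Genes with GGTTCGA had an IDR peak in 43 of 218 cases, and genes without it in 22 of 118. A pooled peak was found at 55.0% of the genes with GGTTCGA and at 45.8% of those without. Among genes with no identical copy it was 9 of 50 with the letters and 2 of 36 without. The letters TGGCNNAGT, a form of the A box, stood in the first 30 bases of 11.3% of the genes, against 0.353% of other genes, and 6 of 38 genes with them and 59 of 298 without them had an IDR peak. A pooled peak was found at 14 of the 38 genes with these letters, or 36.8%, and at 160 of the 298 without, or 53.7%. Identical genes carry the same letters, and isotypes differ in them. These shares therefore cannot be told apart from differences between isotypes and families. TTTT followed within 25 bp in 331 of the 336 genes, or 98.5%, against 41.8% of other genes, and none of the 5 genes without it had a pooled peak.

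The share with an IDR peak was nearly the same with and without an E-box upstream, and the share with a pooled peak differed more. CANNTG, which reads the same on both strands, was found in the 100 bp upstream of 33.6% of the autosomal tRNA genes, against 38.4% of those on X and 27.9% of other autosomal genes. An IDR peak was found at 22 of the 113 genes with an upstream CANNTG, or 19.5%, and at 43 of the 223 without, or 19.3%. A pooled peak was found at 56.6% of the genes with it and at 49.3% of those without. With the gene and the 100 bp on each side searched, an IDR peak was found at 45 of 231 and 20 of 105. A match is a string of letters and not a site, and a window without one says nothing of the protein.

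Set beside the X chromosome, the autosomal tRNA genes had an IDR peak in 19.3% of cases against 23.2% of 276 genes, a pooled peak in 51.8% against 49.3% and a peak in both replicates in 33.6% against 35.5%. Median pooled signals at genes with a peak were 46.3 on the autosomes and 55.9 on X. Upstream G+C had a median of 44% on the autosomes and 39% on X, and 30.1% of the autosomal genes were clustered against 48.9% of those on X. Of the autosomal snoRNA genes, which are also short and often lie in introns, 14.1% of 313 had an IDR peak and 28.4% a pooled peak. No test was made of these differences.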

How the data were processed

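HLH-15 binding was measured by chromatin immunoprecipitation and sequencing, per the labels with an antibody against GFP, although the label for the antibody gives hlh-15, a difference left unresolved. The authors, per the notes deposited beside their lists, derived replicate and pooled lists of peaks and background from the immunoprecipitated libraries and a control library, and the IDR list from those. The deposited signal of each ce11 peak is the authors' score, of unstated scale. Neither aligner nor peak caller is named (not given in the sources used here), and the ce10 lists were not used.

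Genes came from Ensembl release 115, and isotypes from RefSeq products, which matched 334 of the 336 genes. Peaks were assigned by summit within 100 bp. Sequence came from the NCBI sequence of the same assembly. Python 3.11.15, pandas 2.3.3 and scipy 1.17.1 were used, and the assignment was tested on simulated data. There is 1 group of 2 libraries, so no test between conditions was made, and tRNA genes are not replicates. The members, classes and lists were chosen with earlier results of these data known. The genes named are the 12 with the highest pooled signal, the highest of each isotype with at least 4 genes, the members of the largest clusters and of the cluster with most IDR genes, selenocysteine and undetermined genes and those at the edge of 100 bp. The printed families, pairs, Arg genes and B0350.t1 were added after their values were seen. Alternatives covered distance, overlap, copies, clusters, stricter lists and each replicate alone.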

Additional observations from a re-analysis of the deposited data

How the results depend on the processing

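No paired analysis was possible because there is 1 group of samples. Of 63 alternative values, 36 stayed close to those reported, by a factor of 1.5 for counts and by the spread between the replicates for other values, 27 moved further, and none changed sign. With the summit required inside the gene, an IDR peak was found at 35 genes, a pooled peak at 85 and a peak in both replicates at 24, and the median pooled signal was 54.5. Among the 86 genes with no identical copy these were 11, 33, 21 and 42.3, and the shares were lower too, 12.8% with an IDR peak, 38.4% with a pooled peak and 24.4% with a peak in both replicates. The stricter part of the IDR list left 27 genes, the highest 407 peaks of both replicates left 32, and the IDR genes alone had a median of 75.4.

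The share with an IDR peak, clustered minus single genes, was -14.9 percentage points. It was -9.88 with a chain of 500 bp, -11.2 with 5000 bp, -19.5 among genes with unique flanks, -17.0 among genes with upstream G+C over 45%, -22.2 on X, and -11.9 to -10.1 without 1 replicate. The setting on unique flanks leaves out close pairs with IDR genes, because a close tRNA neighbour lowers the unique share of the flank. Autosomes minus X was -3.84 points, -8.51 with 1 gene per cluster, and -5.21 to -4.48 without 1 replicate. Intronic minus intergenic was 1.51 points, 3.55 when intergenic genes within 1000 bp of a protein-coding start were left out, and 1.22 to 2.79 without 1 replicate. Genes with minus genes without the B box letters gave 1.08 points, and 0.48 to 3.27 without 1 replicate. Upstream G+C over 50% minus at most 35% gave 37.1 points, 23.9 with a window of 50 bp, 50.4 on X, and 26.3 to 35.3 without 1 replicate. The cause of these shifts was not tested. The G+C comparison, the single-replicate values of the shares and the settings on flanks and X were chosen after seeing the data. With the depth unknown and 2 libraries, a gene without a peak cannot be called unbound.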
